A study of Mus musculus with 60 samples.

Results

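Interleukins and their receptors were followed in mouse tissues measured on a custom array of glycan-related and immune genes. The members are all genes whose symbol is Il followed by a digit, with 1 probe set per gene, the one with the highest mean over all arrays. This gave 73 of the 909 named genes of the array, with 32 ligands, 37 receptor chains and 4 inhibitors or decoys (Il1rn, Il1f5, Il1r2 and Il22ra2). Of the 73 genes, 6 had several probe sets and 15 were represented by a probe set whose name marks probes shared with other transcripts. Total RNA of 18 mice gave 60 arrays in 18 groups of line, genotype and tissue. In the line labelled St6galnac2, a gene for an enzyme that adds sialic acid to mucin-type glycans, thyroid, lymph node and brain came from 3 wild-type (WT, +/+) and 3 knockout (KO) animals each, and intestine from 3 WT and 2 KO animals. The line labelled B4galnt1/B4galnt2 is named for a pair of N-acetylgalactosaminyltransferases, the first acting on gangliosides. Its double knockout (DKO) animals numbered 5 with thymus, mammary gland and kidney arrays and 3 with testes arrays, beside WT animals numbering 3 (thymus, testes), 2 (mammary gland) and 4 (kidney). A further 3 WT mice labelled C57 gave brain and small intestine. Both sexes were present in every tissue of both lines except testes, while the 3 WT animals with thymus arrays were male. Ages were not given, and each of the 8 tissues came from 1 of the 2 knockout lines, so tissue and line cannot be told apart between these lines.

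Interleukins are secreted proteins through which immune, epithelial and stromal cells signal to each other. They act through receptors built from a ligand-binding chain and a chain that many receptors share, such as Il2rg, the common gamma chain of the receptors for IL-2, IL-4, IL-7, IL-15 and IL-21, or Il6st (gp130), the signalling chain for IL-6 and IL-11. The IL-1 family (IL-1, IL-18, IL-33) signals through receptors with a Toll/IL-1 domain, the IL-10 family (IL-10, IL-20, IL-22) through paired class 2 chains, and the IL-17 family through its own receptors. Decoys such as Il1r2 and Il22ra2 bind a ligand without passing a signal on. In resting tissue many ligands are made only after a stimulus, whereas receptor chains and a few ligands, such as IL-18 and IL-33, are present beforehand.

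The first 250 bases before the gene start are shown for 3 receptor chains that were high in lymph node, for the ligand that led in intestine and for the decoy that led in mammary gland. They were taken from RefSeq on GRCm38.p6, where 58 of the 73 members had an entry, and are written 5′ to 3′ in the direction of the gene. Capitals mark matches on either strand to the interferon-activated (GAS) motif TTCNNNGAA, the ETS motif CGGAAG or CTTCCG, and the NF-kB motif.
Il7r: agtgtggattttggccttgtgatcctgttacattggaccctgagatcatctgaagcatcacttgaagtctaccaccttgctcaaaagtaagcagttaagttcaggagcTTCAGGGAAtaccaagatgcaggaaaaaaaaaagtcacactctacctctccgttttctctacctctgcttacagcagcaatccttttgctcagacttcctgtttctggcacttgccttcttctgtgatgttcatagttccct
Il2rg: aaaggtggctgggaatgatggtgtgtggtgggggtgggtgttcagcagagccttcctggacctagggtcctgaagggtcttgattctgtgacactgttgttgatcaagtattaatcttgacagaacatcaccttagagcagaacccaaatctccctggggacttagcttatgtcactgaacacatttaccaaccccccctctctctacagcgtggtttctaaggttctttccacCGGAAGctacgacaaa
Il21r: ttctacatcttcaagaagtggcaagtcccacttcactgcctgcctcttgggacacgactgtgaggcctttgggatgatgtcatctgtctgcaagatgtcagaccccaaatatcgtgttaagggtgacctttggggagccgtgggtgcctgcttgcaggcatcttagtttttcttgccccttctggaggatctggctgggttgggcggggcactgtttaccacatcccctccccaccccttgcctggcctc
Il18: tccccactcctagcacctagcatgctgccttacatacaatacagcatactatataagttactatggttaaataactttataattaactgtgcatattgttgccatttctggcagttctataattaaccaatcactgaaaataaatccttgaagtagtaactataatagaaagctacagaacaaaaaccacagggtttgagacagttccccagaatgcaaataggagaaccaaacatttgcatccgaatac
Il1r2: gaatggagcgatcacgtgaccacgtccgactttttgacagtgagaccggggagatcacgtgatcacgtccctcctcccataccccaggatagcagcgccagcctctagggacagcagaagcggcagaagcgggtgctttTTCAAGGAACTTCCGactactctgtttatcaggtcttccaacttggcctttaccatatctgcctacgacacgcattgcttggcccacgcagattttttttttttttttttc
These windows lie at chr15:9529877-9530126, minus strand (Il7r), chrX:101268256-101268505, minus strand (Il2rg), chr7:125603179-125603428, plus strand (Il21r), chr9:50554450-50554699, plus strand (Il18) and chr1:40085843-40086092, plus strand (Il1r2). The Il7r window held a GAS match (TTCAGGGAA) from 142 to 134 bases before the start. The Il2rg window held an ETS match (CGGAAG) from 16 to 11 bases before it. Il1r2 held a GAS match (TTCAAGGAA) from 111 to 103 bases before the start and an ETS match (CTTCCG) from 102 to 97 bases before it, next to each other without overlap. In the Il21r and Il18 windows none of these letters was found. The GAS motif was present in 8 of 72 member windows (11.1%) and in 7.02% of all 32841 windows of this length. Member windows come from 58 genes and all windows from 27018, so some genes hold several windows. For the ETS motif the shares were 12.5% of member windows and 13.6% of all windows, and for the NF-kB motif 2.78% (2 windows) and 0.356%. A match is a description of the letters and not a binding site.

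Array values are log2 expression. Of the 60 arrays, 56 resembled other arrays of their labelled tissue and 4 did not (correlation with the labelled tissue under 0.3). Of the latter, a pair came from WT animal 9099: its first brain array resembled intestine (0.96, against -0.27 for brain) and its intestine array resembled brain (0.95, against -0.27 for intestine). The other two were WT thymus arrays (0.04 for N3740, 0.06 for N3738). No array was relabelled, and results that rest on these arrays are given with and without them. The lymph node array of WT animal 9094 stayed closest to lymph node (0.51) but was low in lymphocyte markers, of which 1 of 11 listed T cell genes and 4 of 9 B cell genes were measured. Its Cd2, a T cell marker, stood at 7.98 against 10.12 to 10.60 in the other 5, and the mean of its 4 B cell markers at 7.48 against 9.73 to 10.15, while its 6 connective tissue markers averaged 8.56 against 7.42 to 7.99.

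Arrays labelled thymus lacked the marks of thymus. Cd2 had a median of 5.73 on the 6 of them that resembled each other, against 10.3 in lymph node and 4.43 in kidney. Ccr9 and Ccl25, a receptor and a ligand of thymocyte homing, were at 3.85 and 4.54. The mean of 6 connective tissue markers was 9.93 there, the highest median of any tissue (mammary gland 9.49, thyroid 9.17, lymph node 7.65). Single arrays overlapped, at 9.79 to 10.43 on these 6 and 8.61 to 10.05 in mammary gland. The arrays of this tissue label are therefore called arrays labelled thymus. Ccr9, Ccl25 and Umod were chosen after the values were seen. Kidney arrays carried Umod at 12.09 to 12.49, brain arrays 6 neural markers at a median of 9.15 and intestine arrays 5 epithelial markers at 10.88. Thyroid could be checked only with Chga, an endocrine granule gene, which had a median of 12.78 and was at 5.77 on 1 of 6 arrays; no marker list was used for testes and mammary gland. The targeted transcripts mostly overlapped between the genotypes. St6galnac2 lay between 6.17 and 6.66 in KO and 6.18 and 6.83 in WT lymph nodes, and B4galnt1 between 5.30 and 6.04 in DKO and 5.47 and 5.93 in WT kidneys. On arrays labelled thymus B4galnt1 did not overlap, at 4.73 to 5.23 in DKO and 5.45 to 8.72 in WT animals, where the WT group holds the 2 arrays that stand apart. Whether these probes lie in a deleted part is not given, so genotypes are those of the labels.

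**Figure D1:**
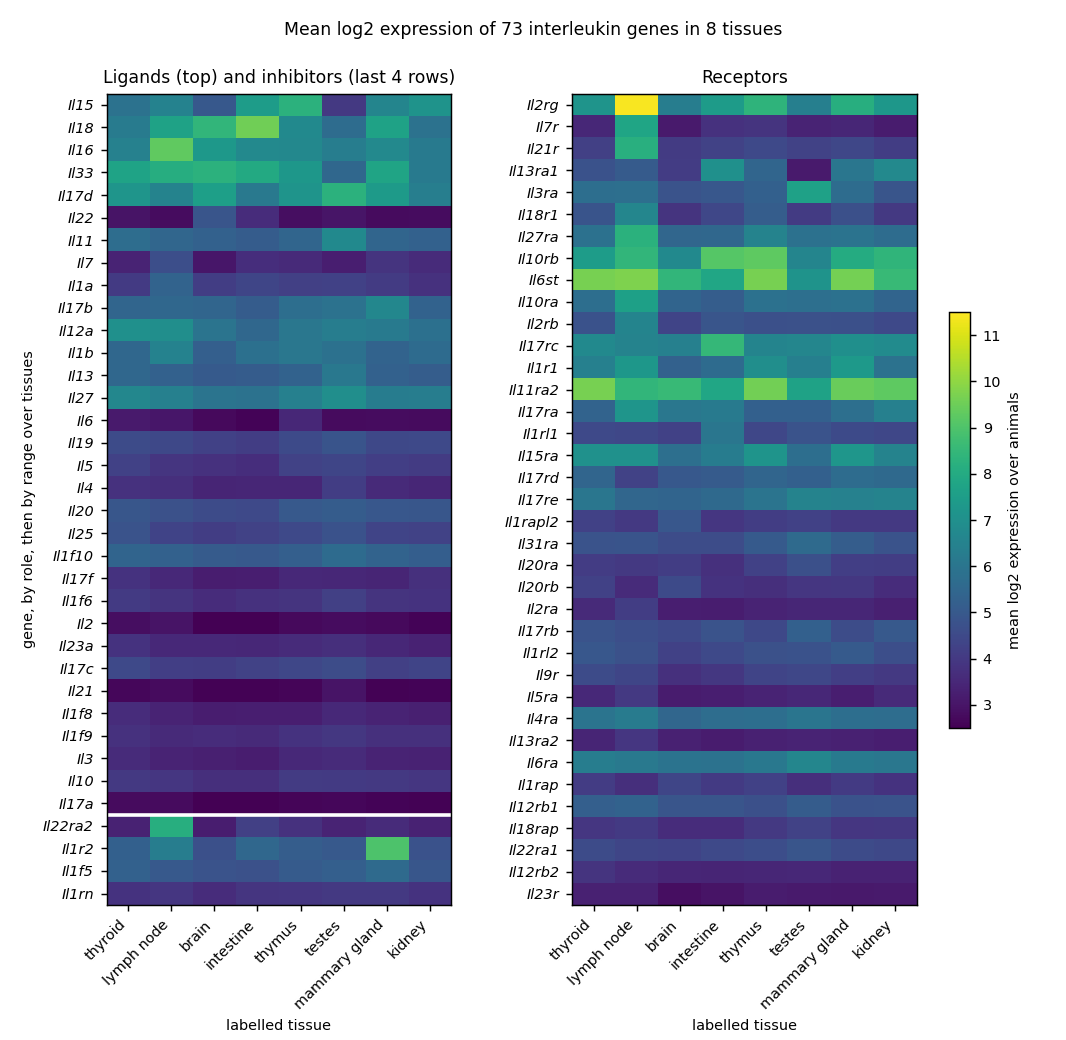
Mean log2 expression over animals (colour) of the 73 members (rows, by role and then by range over tissues) in the 8 labelled tissues (columns), with the arrays that stand apart included. Most ligand rows are dark and even from left to right, while Il2rg, Il7r, Il21r, Il16 and Il22ra2 brighten in the lymph node column, Il1r2 in mammary gland and Il18 in intestine.

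Most interleukin ligands were even across tissues, and many were low. Over the 8 tissue means, the range was under 1 log2 unit for 18 of 32 ligands, 16 of 37 receptors and 2 of 4 inhibitors, and so for 49.3% of members against 24.9% of all 909 genes. The highest tissue mean was still under 4.52, the 25th percentile of all array values, for 13 ligands, 8 receptors and 1 inhibitor, which is 30.1% of members against 9.9% of all genes. Il2, the T cell growth factor, had tissue means between 2.53 in brain and 2.98 in lymph node. Il17a, the signature cytokine of a helper T cell class, lay between 2.48 and 2.77, and Il21, made by follicular helper T cells, between 2.55 and 2.99. Il10, an anti-inflammatory cytokine, spanned 3.71 to 4.08. The ligands with the widest ranges were Il15, which sustains natural killer and memory T cells (4.01 in testes to 8.28 in arrays labelled thymus), Il18 (5.68 in testes to 9.56 in intestine) and Il16, a T cell attractant (6.17 in kidney to 9.29 in lymph node). Among receptors the range was widest for Il2rg, from 6.33 in brain to 11.41 in lymph node. Levels of different probe sets are not comparable as amounts of RNA. By tissue mean, testes held the highest value of 21 members, 13 of them ligands, and lymph node that of 20 members, 14 of them receptors. In testes most of these were small differences, as 3 members passed the test below. The same count was not made over all 909 genes, so it describes the members alone.

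Each tissue was set against the average of the other 7, over KO, DKO and WT animals of both lines together. A gene was called at a limma p, adjusted by Benjamini-Hochberg over 963 probe sets, under 0.05 with a log2 difference of at least 1. At least 1 tissue was called for 29 of 73 members (39.7%) and for 59.8% of all genes. In bulk tissue, fewer cells of a type and less RNA per cell cannot be told apart.

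Lymph node had the most members above the other tissues, and most of them were receptor chains. Of 73 members, 14 were higher (10 receptors, 3 ligands and 1 inhibitor) and 0 were lower, where 11.7% of all probe sets were higher and 8.31% lower. Without the 4 arrays that stand apart, 12 were higher and 1 was lower. The largest difference was that of Il22ra2, a soluble decoy that binds IL-22. Its level was 8.24, 8.40 and 6.43 in WT nodes (animals 9362, 9099 and 9094) and 9.28, 8.74 and 7.86 in KO nodes (animals 9093, 9361 and 9100). No array of any other tissue reached these values, and the low WT value belongs to animal 9094. The difference was 4.36 ± 0.25 (SE; adjusted p = 1.18e-19, limma), or 4.74 without animal 9094.

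Il7r, Il2rg and Il21r, receptor chains of the common gamma chain family, were also high in lymph node, and lowest there in the same animal. Il7r, the IL-7 receptor chain that naive T cells need, was at 8.81, 8.07 and 5.20 in WT and at 8.04, 8.23 and 8.37 in KO nodes, and between 3.16 and 3.84 in the means of the other tissues. Il2rg was at 10.94, 11.94 and 9.64 in WT and at 12.11, 12.18 and 11.66 in KO nodes. Il21r was at 8.64, 8.88 and 5.57 in WT and 8.64, 8.97 and 8.34 in KO nodes. In each of these, animal 9094 was the lowest of the 6 nodes, as it was for the T and B cell markers, whose part in these levels was not tested. The differences were 4.17 ± 0.22 for Il7r (adjusted p = 5.51e-21), 3.97 ± 0.23 for Il2rg (7.34e-20) and 3.78 ± 0.21 for Il21r (5.91e-20; limma). A second probe set of Il21r gave 3.74. Il16 was higher by 2.70 ± 0.31 (5.88e-10) and Il27ra, the IL-27 receptor chain of T cells, by 2.38 ± 0.15 (5.26e-18). The other 8 called members (Il18r1, Il10ra, Il2rb, Il17ra, Il1a, Il6st, Il7 and Il1r1) were higher by up to 2.09, and Il6st (0.91) and Il1r1 (0.93) fell under the limit of 1 without the arrays that stand apart.

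**Figure D2:**
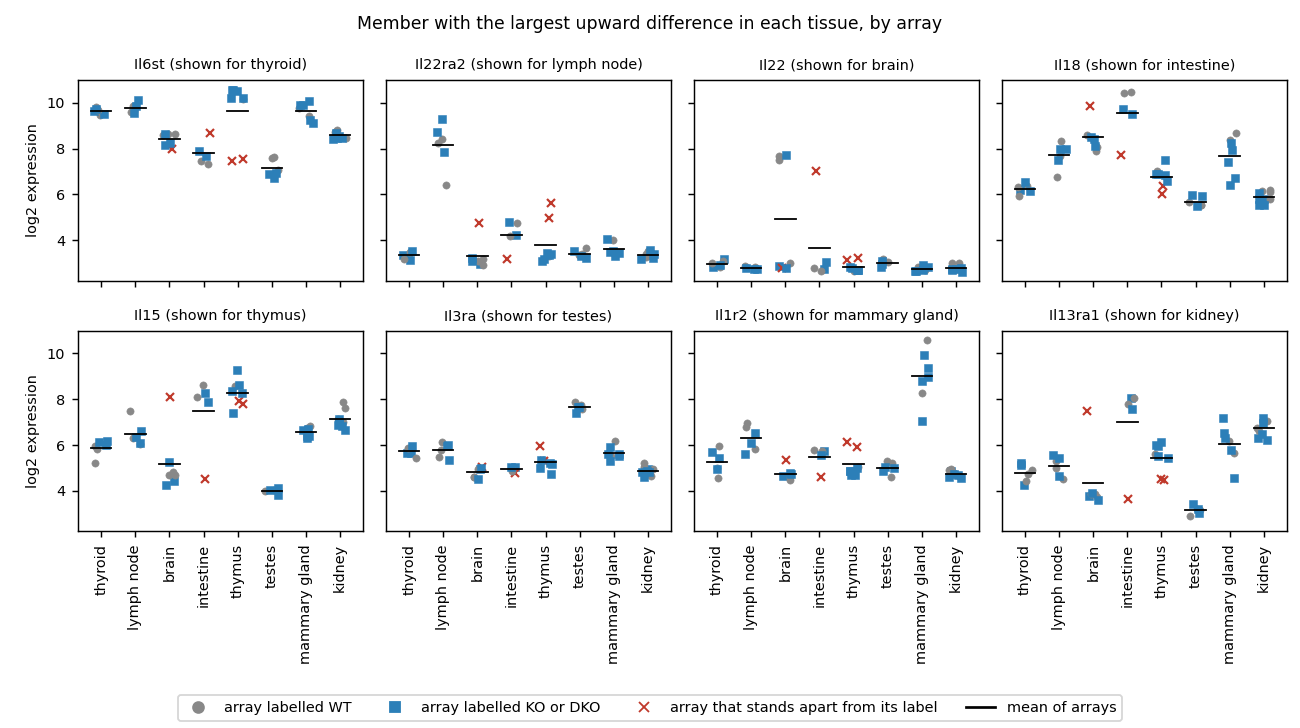
Log2 expression (y axis) of the member with the largest upward difference in each tissue, by labelled tissue (x axis); points are single arrays of both lines, crosses the arrays that stand apart, and bars the means of arrays. Il22ra2 in lymph node and Il3ra in testes stand clear of every other tissue, Il1r2 in mammary gland starts at 7.07 just above a lymph node at 6.95, and Il22 in brain splits into arrays near 3 and arrays above 7.

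In intestine the largest upward difference was that of Il18. Of the 73 members 6 were higher (4 receptors and 2 ligands) and 3 lower, against 9.87% and 8.83% of all probe sets. The counts of higher and lower members were the same without the arrays that stand apart. Il18, an IL-1 family ligand that epithelia store as an inactive precursor, was at 10.46 and 10.41 in WT animals 9362 and 9094, at 9.71 and 9.52 in KO animals 9361 and 9093, and at 7.71 on the intestine array of animal 9099 that resembles brain. The first brain array of this animal, which resembles intestine, read 9.85. C57 small intestine was at 11.15, 10.13 and 10.61. Il18 was higher by 2.59 ± 0.27 (adjusted p = 1.58e-10) and by 2.99 without the arrays that stand apart. Il13ra1, a chain of the IL-4 and IL-13 receptor, was higher by 1.95 ± 0.36 and Il17rc, a chain of the IL-17 receptor, by 1.78 ± 0.25. Without these arrays the differences were 2.71 and 2.49. Il1rl1, the IL-33 receptor, was higher by 1.51 ± 0.21 on 1 probe set, while its other probe set showed -0.42, so the gene's 2 probe sets disagreed. The second was instead higher in mammary gland, by 1.94. Il10rb, a chain shared by the receptors for IL-10 and IL-22, was higher by 1.29 ± 0.31 and Il15 by 1.19 ± 0.33. Both differences rested on the animals taken: they were 1.96 and 1.94 when arrays that stand apart were left out, 2.06 and 2.03 without animal 9099, and 1.03 and 0.96 without 9362. Il15 was also under the limit of 1 without 9094 (0.90) or 9361 (0.97). In WT animals only, which hold all 4 arrays that stand apart, Il13ra1, Il10rb and Il15 were higher by 1.5, 0.85 and 0.79 and did not pass the test (adjusted p = 0.063, 0.24 and 0.303). In WT animals with those arrays left out they passed, at 2.91, 2.04 and 2.15. Il11ra2, Il17d and Il6st were lower by 1.06 to 1.14, all 3 under the limit once arrays were centred on their medians. Il11ra2 has a near-identical copy in Il11ra1, and its probe set may read both.

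In brain more members were called lower than higher, and the share of members called lower was near that of all probe sets. Of the members 3 were higher, all ligands, and 9 lower (6 receptors, 2 decoys and 1 ligand), against 14.8% and 12.9% of all probe sets. Il2rg fell short of the average of the other tissues by 1.83 (SE 0.23, limma adjusted p = 2.47e-09). That average holds lymph node, at 11.41. Brain was at 6.33, and the median of the 8 tissue means of Il2rg was 7.37. The differences of Il15, Il10rb and Il13ra1 were -1.66, -1.40 and -1.39. In WT animals only, the last 3 were at -1.23, -0.93 and -0.86 and did not pass the test. With arrays that stand apart left out they passed in WT animals, at -2.04, -1.80 and -1.76. The other 5 lower members differed by -1.30 to -1.08. Il22, a cytokine of innate and helper lymphocytes that acts on epithelia, had the largest difference upward, 2.04 ± 0.44 (adjusted p = 7.73e-05), but it was not high in all brains. WT animals were at 7.67 (9362), 3.0 (9094) and 7.48 on the brain-like array of 9099, and KO animals at 2.88 (9093), 2.79 (9361) and 7.73 (9100). Each genotype thus held both high and low brains, and so did C57 mice, at 3.03, 7.35 and 3.49. The first brain array of 9099, which resembles intestine and is averaged with the second in the fit, read 2.77, and the intestine array that resembles brain 7.01. Without the arrays that stand apart the difference was 2.52. These 5 arrays are the only ones of 60 above 7, and the other 55 lie under 3.5. Il18 and Il33, an alarmin held in cell nuclei, were higher by 1.27 ± 0.26 and 1.11 ± 0.27. Against the other 3 tissues of the same line these differences were 0.58 and 0.37 and did not pass the test (adjusted p = 0.106 and 0.171). Without the arrays that stand apart Il18 was higher by 0.97, under the limit of 1.

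In testes 3 members were higher and 9 lower, against 8.72% and 18.5% of all probe sets, with the same counts without the arrays that stand apart. Il3ra, the ligand-binding chain of the IL-3 receptor, was at 7.57, 7.74 and 7.89 in WT (N9700, N3740 and N3738) and at 7.67, 7.68 and 7.40 in DKO testes (N5895, N5894 and N5893). The genotypes overlapped, and the highest mean elsewhere was 5.79 in lymph node. Il3ra was higher by 2.41 ± 0.11 (adjusted p = 8.92e-24). Il17d, a ligand of the IL-17 family, and Il11, a gp130 ligand, were higher by 1.35 ± 0.15 and 1.33 ± 0.09. The differences furthest down were those of Il15 (-2.56 ± 0.31), Il13ra1 (-2.27 ± 0.34), Il33 (-2.06 ± 0.27) and Il6st (-2.01 ± 0.27). The other 5 lower members differed by -1.72 to -1.01.

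Mammary gland was set apart by the IL-1 decoy receptor. Of the members 3 were higher and 0 lower, against 10.4% and 2.6% of all probe sets. Il1r2 was at 10.59 and 8.26 in WT (the male N3738 and the female N9686), at 8.96, 9.94 and 9.38 in male DKO and at 7.07 and 8.80 in female DKO animals. All 4 males thus lay above all 3 females, and every mammary gland lay above the highest value of the other tissues of either line, 6.95 in lymph node. A C57 small intestine array reached 7.08. The difference was 3.98 ± 0.24 (adjusted p = 3.57e-18). Il17b, a ligand of the IL-17 family, was higher by 1.28 ± 0.22 and Il1r1, the signalling IL-1 receptor, by 1.08 ± 0.16. In WT animals only, Il17b did not pass the test (0.81, adjusted p = 0.143). Il1r1 was under the limit of 1 with centred arrays (0.97), after a second quantile normalization (0.87), against the other 3 tissues of the line (0.96) and without N3738 (0.82) or N5894 (0.99).

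Arrays labelled thymus had 2 members higher and 0 lower, against 5.92% and 2.7% of all probe sets. Il15 was at 8.59, 7.78 and 7.93 in WT (the latter 2 being N3740 and N3738, which stand apart) and at 7.39, 8.28, 8.61, 8.37 and 9.26 in DKO animals. It was higher by 2.30 ± 0.28 (adjusted p = 1.41e-08), and Il10rb by 1.42 ± 0.27. Without the arrays that stand apart these were 2.44 and 1.71, and Il6st became the third, higher by 1.79 after 0.81. The markers of T cells were low on these arrays, as given above, and those of connective tissue high; their part was not tested. In WT animals only, Il15 was higher by 2.03 (adjusted p = 0.0553) and Il10rb by 1.0 (0.317). With the doubtful arrays left out, which leaves 1 WT animal in this tissue, both passed in WT animals, at 2.32 and 1.66.

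Kidney had 1 member higher and 2 lower, against 11.6% and 8% of all probe sets. Il13ra1 ranged from 6.61 to 7.07 in the 4 WT kidneys and was at 6.31, 6.47, 6.22, 7.20 and 6.98 in DKO kidneys, and it was higher by 1.63 ± 0.29 (adjusted p = 5.40e-06). Intestine arrays that resembled their label reached 7.87 in the mean, so kidney was second in level for this chain. Il18 and Il33 were lower, at -1.49 ± 0.22 and -1.37 ± 0.22, but by less than the limit of 1 against the other 3 tissues of the line (-0.84 and -0.73). Thyroid had 2 members higher and 2 lower, against 6.75% and 7.89%. Il6st was at 9.46, 9.68 and 9.81 in WT and 9.51, 9.66 and 9.74 in KO thyroids, an even level that lymph node, arrays labelled thymus and mammary gland also reached. Its difference was 1.06 ± 0.27 (adjusted p = 0.00113) and 0.78 without the arrays that stand apart. Il11ra2 was higher by 1.01 ± 0.16, at the limit of 1 (0.99 in WT animals only, 0.96 with centred arrays). Il18 was lower, at -1.22 ± 0.26, and Il22ra2 at -1.13 ± 0.25, or -0.95 without the arrays that stand apart. For Il22ra2 the average of the other 7 tissues holds lymph node, at a mean of 8.16. The median of the 8 tissue means of this gene was 3.5.

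Cytokine receptors and ligands outside the interleukins were also called in lymph node. Of 21 such genes on the array (among them colony-stimulating factors, interferons, Kit and Flt3 with their ligands and receptors, and Cntfr), 7 were higher in lymph node and 0 lower, beside the 11.7% and 8.31% of all probe sets given above. Csf2rb, the chain that the receptors for IL-3, IL-5 and GM-CSF share, was higher by 4.22 ± 0.24 and its close relative Csf2rb2 by 3.58 ± 0.20. In testes 0 were higher and 4 lower, beside 8.72% and 18.5% of all probe sets, so the lower count was near that share. Among the 4 was Csf1r, the macrophage growth factor receptor, at -2.62 ± 0.18.

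The knockout comparisons asked which members differ between genotypes within a tissue, adjusted for sex in all but the testes. No member was called in any of the 8 tissues. Of all probe sets 0% were called in thyroid, lymph node, brain, intestine, arrays labelled thymus and mammary gland, 0.312% in testes and 0.104% in kidney. At an unadjusted limma p under 0.05 the members numbered 1 in thyroid, 3 in lymph node, 0 in brain, 0 in intestine, 14 in arrays labelled thymus, 3 in testes, 4 in mammary gland and 6 in kidney. In the same order, 42, 33, 3, 2, 202, 124, 97 and 129 of all 963 probe sets were under this p. The median difference of the members lay between -0.17 (arrays labelled thymus) and 0.05 (intestine), beside -0.10 and 0.01 for all probe sets in these tissues.

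**Figure D3:**
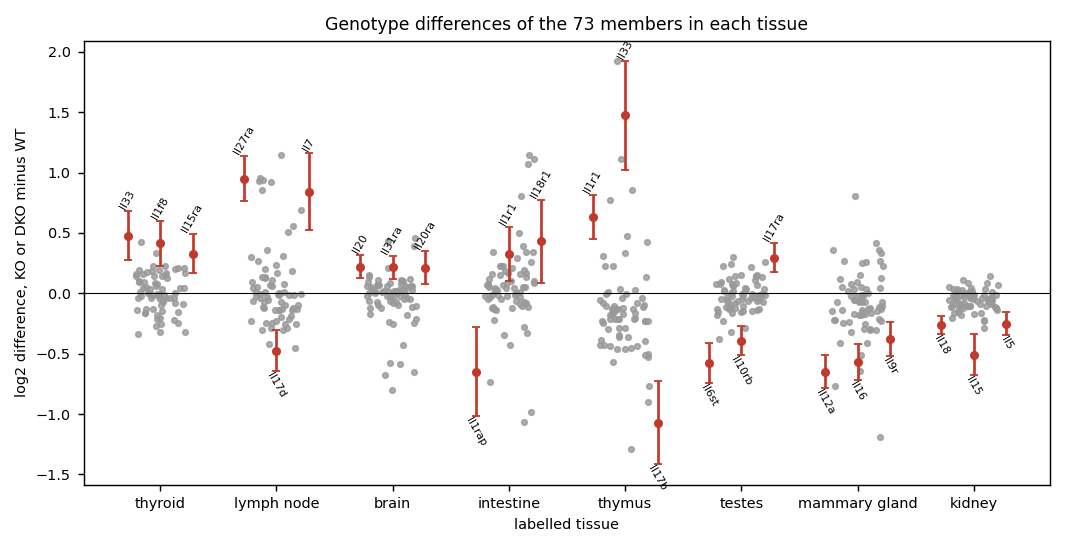
Log2 difference between KO or DKO and WT (y axis) of the 73 members in each labelled tissue (x axis); red points with standard errors are the 3 members with the smallest p, grey points the others. No point passed the adjusted threshold, and the points reach from -1.29 to 1.92 in arrays labelled thymus but only from -0.51 to 0.14 in kidney.

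In the St6galnac2 line the smallest p was that of Il27ra in lymph node. Il27ra stood at 8.23, 8.17 and 6.92 in WT nodes, the last being animal 9094, and at 8.28, 8.92 and 8.97 in KO nodes. The KO nodes lay above the WT nodes, though the nearest values (8.28 and 8.23) almost met. The difference was 0.95 ± 0.19 (adjusted p = 0.801, limma) and 0.75 without animal 9094. When both genotypes of all 4 tissues were fitted together, without the animal as a block, it passed the test (adjusted p = 0.0181). Il17d (-0.47 ± 0.17) and Il7, the ligand of Il7r (0.84 ± 0.32, or 0.49 without 9093 or 9094), came next. In thyroid Il33 was at 7.72, 7.66 and 7.03 in WT and 7.76, 8.02 and 8.06 in KO animals, a difference of 0.48 ± 0.21 (adjusted p = 0.989) that was 0.20 without 9094 or 9093. It was followed by Il1f8 (0.41 ± 0.19) and Il15ra (0.33 ± 0.16). In brain Il20, an IL-10 family ligand, was at 4.44, 4.54 and, on the brain-like array of 9099, 4.32 in WT and at 4.71, 4.67 and 4.65 in KO animals, with a difference of 0.22 ± 0.10 (adjusted p = 0.905). Il31ra and Il20ra differed there by 0.21 each. In intestine Il1rap, the accessory chain of IL-1 receptors, was at 3.86 and 4.27 in WT animals 9362 and 9094 and at 4.74 on the WT array that resembles brain, against 3.57 and 3.72 in KO animals. Its difference was -0.65 ± 0.37 (adjusted p = 0.991), or -0.42 without that array. Il1r1 differed by 0.33 ± 0.22 and Il18r1, the IL-18 receptor chain, by 0.43 ± 0.34, and leaving out 1 animal gave 0.07 to 0.52 and 0.10 to 0.68. Over the 4 tissues of the line no member and 0% of probe sets were called, and Il27ra had the smallest p (0.22 ± 0.06, adjusted p = 0.976), before Il18r1 (0.36) and Il7 (0.29). A test of whether the difference varied between tissues called 0% of probe sets and no member, with the smallest p for Il27ra (adjusted p = 0.969).

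In the B4galnt1/B4galnt2 line Il12a, a subunit of IL-12 and IL-35, was the one member called over the 4 tissues. In mammary gland it was at 6.71 and 6.52 in WT and at 6.20, 6.08, 5.89, 5.97 and 5.79 in DKO animals, and all DKO values lay below both WT values. On arrays labelled thymus it was at 6.17 in WT animal N9700, at 6.43 and 6.34 on the WT arrays that stand apart, and at 5.82, 5.99, 5.79, 5.85 and 6.14 in DKO animals, again without overlap. In testes the WT animals were at 6.50, 6.19 and 6.17 and the DKO animals at 6.32, 6.43 and 6.34, and in kidney the ranges overlapped (5.72 to 5.99 in WT, 5.68 to 5.99 in DKO). The mean difference over the 4 tissues was -0.27 ± 0.06 (adjusted p = 0.0495, limma), where 0.831% of all probe sets were called. The call was lost when arrays were centred on their medians (-0.20, adjusted p = 0.137), when arrays that stand apart were left out (-0.23, 0.121) and without any 1 animal other than N9700. In mammary gland alone the difference was -0.65 ± 0.14 (adjusted p = 0.22). In 1 fit of the whole line, made without the animal as a block, the same difference passed (limma, adjusted p = 0.00423). It was followed by Il16 (-0.57 ± 0.15) and Il9r, the IL-9 receptor chain (-0.38 ± 0.14). Without animal N9700, when the arrays that stand apart are the only WT arrays labelled thymus, 19 members were called over the 4 tissues, along with 32.9% of all probe sets.

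The differences of Il12a and Il6st varied between tissues of this line by a moderated F test (limma; F = 8.82, adjusted p = 0.0404, and F = 7.13, adjusted p = 0.049), where 3.43% of all probe sets were called. Il6st was at 10.18 in WT animal N9700 on the arrays labelled thymus and at 7.56 and 7.45 on those that stand apart, against 10.20, 10.54, 10.22, 10.57 and 10.50 in DKO animals. In testes it was at 7.06, 7.59 and 7.63 in WT and 6.88, 6.73 and 6.94 in DKO animals, with no overlap and a difference of -0.58 ± 0.16 (adjusted p = 0.265). Without N9700 the testes difference was -0.76 and passed the test (adjusted p = 0.00318), along with 21.3% of all probe sets. In mammary gland and kidney Il6st overlapped between genotypes. Neither F test passed once the 4 doubtful arrays were left out (adjusted p = 0.0962 for Il12a and 0.706 for Il6st), with centred arrays (0.0509 and 0.0593) or without any 1 animal other than N9700. Without the animal as a block the Il6st test did not pass either (adjusted p = 0.0654). Il10rb (-0.39 ± 0.12) and Il17ra, the shared IL-17 receptor chain (0.29 ± 0.12), were next in testes.

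**Figure D4:**
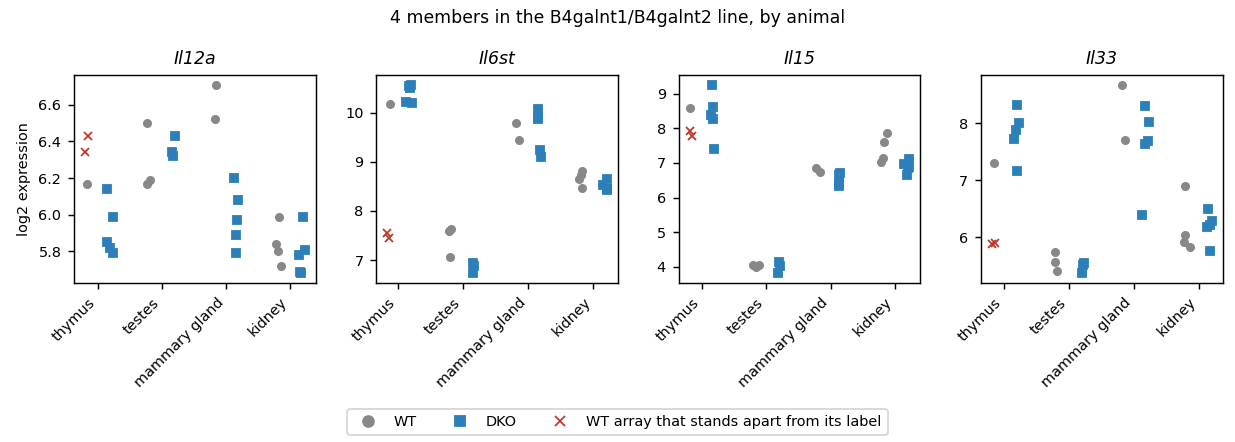
Log2 expression (y axis, a scale of its own in each panel) of Il12a, Il6st, Il15 and Il33 in the 4 labelled tissues of the B4galnt1/B4galnt2 line (x axis), 1 point per animal; circles are WT, squares DKO and crosses the WT arrays that stand apart. Il12a is lower in DKO than in WT animals in mammary gland, and the Il6st and Il33 contrasts on arrays labelled thymus rest on the crosses.

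On arrays labelled thymus the members with the smallest p moved with the arrays that stand apart. Il1r1 was at 6.73 in N9700, 6.29 and 6.48 on the WT arrays that stand apart, and 7.41, 7.06, 6.94, 7.21 and 7.30 in DKO animals. The difference was 0.63 ± 0.19 (adjusted p = 0.233) and 0.41 without these arrays. Il33 differed by 1.47 ± 0.45 and Il17b by -1.07 ± 0.34, which became 0.53 and -0.22 without them. On these 2 arrays the mean of 5 intestinal epithelium markers was 7.91 and 8.12, against 5.99 to 6.19 on the other 6. The mean of 6 connective tissue markers was 8.15 and 8.31 against 9.79 to 10.43. Without them no member had an adjusted p under 0.989. In 1 fit of the whole line, made without the animal as a block, 19 members were called on arrays labelled thymus, along with 27.7% of all probe sets. In the fit of these arrays alone, 20 members were called without N9700, along with 39%. In kidney Il18 was at 5.78, 6.21, 6.14 and 6.12 in WT and 5.81, 6.05, 5.81, 5.54 and 5.52 in DKO animals. Its difference was -0.26 ± 0.07 (adjusted p = 0.25), before Il15 (-0.51 ± 0.17) and Il5, the eosinophil growth factor (-0.25 ± 0.09).

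Between the sexes, 4 members were called in kidney, 3 higher in females and 1 lower, where 9.03% of all probe sets were called. Il18 was at 5.54, 5.52 (DKO) and 5.78 (WT) in the 3 females, and between 5.81 and 6.21, with a median of 6.08, in the 6 males. Females lay below all males, by 0.37 ± 0.08 in the fit (female minus male -0.37, adjusted p = 0.0146, limma). Il10rb was at 8.77, 8.75 and 8.80 in females and between 7.93 and 8.50, median 8.19, in males. Its difference was 0.56 ± 0.13 (adjusted p = 0.0183). Il17re, a receptor for IL-17C, was at 6.65, 7.0 and 6.75 in females and 6.34 to 6.54, median 6.36, in males, a difference of 0.41 ± 0.09 (adjusted p = 0.0183), and its second probe set gave 0.69. For Il13ra1 the females were at 6.98, 7.20 and 6.97 and the males at 6.22 to 7.07, median 6.54, so that the sexes overlapped by 1 WT male. The difference was 0.53 ± 0.14 (adjusted p = 0.0408). The Il13ra1 call was lost with centred arrays (adjusted p = 0.0553) and without N5891 or N5892 (0.136 and 0.186) or any 1 of the males N3738, N3740, N5893, N5894 and N5895 (0.0624 to 0.0961). The count of called members also rested on each female. Without animal N5891, N5892 or N9686, 1, 0 and 1 members were called, and among DKO kidneys alone 1.

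**Figure D5:**
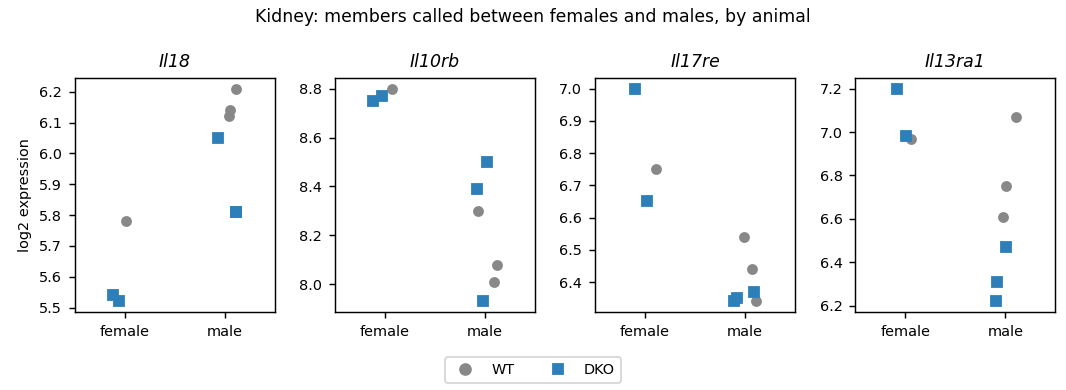
Log2 expression (y axis, a scale of its own in each panel) of the 4 members called between female and male kidneys (x axis), 1 point per animal; circles are WT and squares DKO. Females and males do not overlap for Il18, Il10rb and Il17re, and 1 WT male reaches the females for Il13ra1.

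In mammary gland no member was called between the sexes, where 0.312% of all probe sets were. At an unadjusted limma p under 0.05 there were 12 of 73 members, beside 111 of 963 probe sets. Without animal N5893, 1 member was called. The smallest p were those of Il18r1 (female minus male 0.64 ± 0.14, adjusted p = 0.183), Il1r2 (-1.73 ± 0.47, 0.246) and Il1b, a central inflammatory cytokine (0.52 ± 0.15, 0.271). Il18r1 was at 4.98 to 5.16 in the 3 females and 4.26 to 4.64 in the 4 males. The differences between sexes were not tested between the tissues.

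The WT animals of the St6galnac2 line did not differ by a called member from C57 mice, with 0% of all probe sets called in brain and 0% in intestine. This comparison holds the arrays of WT animal 9099 that resemble the other tissue. Without them no member was called either (smallest limma adjusted p = 0.0663 in brain and 0.138 in intestine). Of all probe sets, 0 were then called in brain and 1 in intestine. In brain 7 and in intestine 8 of 73 members had an unadjusted limma p under 0.05, beside 103 and 112 of 963 probe sets. Without the arrays that stand apart these were 17 and 9 members, beside 246 and 208 probe sets. Il10ra, the ligand-binding IL-10 receptor chain, differed by -0.55 ± 0.12 in brain (adjusted p = 0.344) and by -0.71 ± 0.16 in intestine (0.317). Il20 (-0.45 ± 0.11) and Il27, a relative of IL-12 (-0.34 ± 0.10), followed in brain. In intestine Il1r1 (-0.71 ± 0.15) and Il17rd, an IL-17 receptor relative (-1.03 ± 0.34), were next. The median of all probe sets was itself at -0.14 in brain and -0.25 in intestine, and near 0 (-0.03 and 0.03) once arrays were centred.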

How the data were processed

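Total RNA of mouse tissues was measured on 60 custom Affymetrix arrays. The deposited values are log2 expression made by the authors with RMA, per the submitters' processing notes, with no version given and no statement on whether all arrays were normalized together. They lie between 2.11 and 14.07 and were used as deposited. The number of arrays limits the precision. Of 1246 probe sets, 963 were named through their RefSeq identifier and entered the tests, and 283 were not named. Arrays of 1 animal and tissue were averaged. Comparisons used limma 3.58.1 in R 4.3.3 (lmFit, eBayes, 2-sided), with the animal as a random block across tissues (block correlation -0.118 and 0.0734 in the lines, -0.0628 across tissues), genotype and sex as covariates in tissue comparisons, and Benjamini-Hochberg adjustment within each comparison. The same animals gave several tissues, so the block is a real pairing. ± beside differences is the standard error. Animals of a group are separate mice by their labels. The fits were tested on simulated data.

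Called members were named, at most 6 higher and 4 lower per tissue. Elsewhere all called members were named, or the 3 with the smallest p where none was called. Values by array are given for the largest upward difference in each tissue, for called members and for the smallest p. Il7r, Il2rg and Il21r by array, the names of the other 8 lymph node members, the brain values of other members and Il1rl1's second probe set were added after their values were seen. Marker and partner lists, members and tests were chosen with earlier results of these data known. The limit of 0.3 for arrays that stand apart was set after the values were seen. Of the marker lists, natural killer and myeloid cell markers were highest in lymph node (medians of 4.79 and 7.80). Myeloid markers were close to this in mammary gland, with a median of 7.73. Single mammary gland arrays reached 8.49, above the highest lymph node at 7.97.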

Additional observations from a re-analysis of the deposited data

Results flagged for a closer look

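Among 32 members in the 4 groups of 4 to 10 animals (128 sets of values), 7 held an animal far from the others of its group by Dixon's criterion at 95%. Chance flags about 1 in 20 such sets. On arrays labelled thymus of DKO animals, Il10rb was lowest at 9.21 in N5895 (the highest was 9.80), Il27ra lowest at 6.08 in N5893 (highest 7.06) and Il31ra highest at 5.25 in N5894 (lowest 4.85). In DKO mammary gland Il1rap was highest at 4.36 in N5894 and Il20ra at 4.74 in N5891, each above a lowest value of 3.94. In DKO kidney Il17b was lowest at 5.13 in N5892, and in WT kidney Il27ra was highest at 5.85 in N3740.

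The DKO difference varied between the 4 tissues of the B4galnt1/B4galnt2 line for Il12a (adjusted p = 0.0404, limma F test) and Il6st (adjusted p = 0.049). With the 4 doubtful arrays left out, the values were 0.0962 and 0.706.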

How the results depend on the processing

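No named result reversed its direction. Counts of called members moved over 1.5 times as follows. In 1 fit per line, made without the animal as a block, lymph node, arrays labelled thymus and mammary gland gave 1, 19 and 1 genotype calls in place of 0. Among DKO kidneys, 1 sex call was made in place of 4. Over the B4galnt1/B4galnt2 line (1 call), there were 0 with centred arrays, 0 when arrays that stand apart were left out and 3 with no replicate block, while the test between tissues (2 calls) gave 0, 0 and 1. Tissue calls with no fold limit and with a limit of 2 on the log2 scale numbered 25 and 0 (thyroid), 36 and 7 (lymph node), 57 and 1 (brain), 44 and 1 (intestine), 20 and 1 (thymus), 47 and 5 (testes), 19 and 1 (mammary gland), 33 and 0 (kidney). In WT animals only they were 1 (thyroid), 6 (brain), 5 (intestine) and 0 (thymus). The same with arrays that stand apart left out, an alternative chosen after seeing the data, gave 2 (thyroid), 4 (thymus) and 5 (kidney), and leaving out these arrays in all animals gave 2 (thyroid). Against the other 3 tissues of the line they were 8 (thyroid), 5 (thymus) and 6 (kidney), and with a gene's other probe set 5 (mammary gland). Leaving out 1 animal gave 0 to 20 genotype calls on arrays labelled thymus, 0 to 5 in testes, 0 to 19 over the line and 0 to 15 between tissues, each highest without N9700, and 0 to 5 (kidney) and 0 to 1 (mammary gland) sex calls. The cause was not tested. The replicate block pairs tissues of 1 animal, and without it all 41 named tissue calls passed. In WT animals only 27 of the 41 did, and 37 with arrays that stand apart left out. Centring moved the split of all probe sets from 95 higher and 85 lower to 113 and 54 in intestine, from 113 and 80 to 105 and 104 in lymph node and from 100 and 25 to 85 and 40 in mammary gland. Quantile scaling moved it from 84 and 178 to 116 and 147 in testes.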

Other observations

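The split of Il22 among brain arrays ran through other members. The 4 brain arrays with Il22 above 7 were those of WT 9362 (7.67), the second array of WT 9099 (7.48), KO 9100 (7.73) and C57 F2 (7.35). On these arrays, in the same order, Il16 stood at 8.88, 9.02, 8.84 and 8.67, and Il20rb, a chain of the IL-20 and IL-24 receptors, at 6.08, 6.03, 6.83 and 6.35. The brain arrays of KO 9093, WT 9094, KO 9361, C57 M3 and C57 F1 had Il16 at 6.08, 6.10, 6.06, 6.25 and 6.37 and Il20rb at 3.29, 3.03, 3.22, 3.51 and 3.60. Il1rapl2, a synaptic relative of the IL-1 receptor, went the other way, at 4.29, 4.64, 4.25 and 4.85 on the first 4 arrays and at 5.69, 5.59, 5.62, 5.36 and 5.66 on the other 5. Il12a was at 5.74, 5.6, 5.81 and 5.93 against 6.11, 6.30, 6.24, 6.48 and 6.59. Both sets hold KO, WT and C57 animals. By the labels 9362, 9099 and 9100 of the first set are male. In the second set 9361 is male, and 9093 and 9094 are female. The labels do not state the sex of the C57 mice. These members were picked after their values were seen, and no test was made of arrays grouped in this way.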
